A study of Mus musculus with 6 samples.

Results

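Interferon regulatory factors (IRFs) are DNA-binding proteins that switch interferon and immune response genes on or off. The 8 genes described here, Irf1, Irf2, Irf3, Irf4, Irf5, Irf7, Irf8 and Irf9, were chosen by symbol, and all 8 were found in the count, normalized-count and FPKM tables among 37187 genes listed. All 8 were among the 13626 genes that passed the filter on low counts and were tested. The sequenced RNA came in bulk from regulatory T cells (Tregs), a CD4 lineage that holds immune responses in check and depends on the factor FOXP3, gated on CD4, CD25 and GITR in lymph nodes that drain a tumour. The 3 WT libraries (replicates 1 to 3) came from C57BL6 mice and the 3 KO libraries (replicates 4 to 6) from il33-/- mice on that background, and all mice carried B16.F10 melanoma, placed under the skin as 300000 cells, for 14 days. The labels give neither the age of the mice, nor the kind of Il33 deletion, nor whether nodes of several mice were pooled. The comparison asks what loss of the cytokine IL-33 does to the transcripts of tumour-exposed Tregs.

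Every IRF binds repeats of the bases GAAA through a tryptophan-rich domain at its start, and the members differ in what induces or activates them. IRF1 is made in response to interferon-gamma and NF-kB signals, and IRF2 competes with it at the same sites. IRF4 is made after T cell receptor stimulation and is needed for effector Tregs. IRF3 and IRF7 are activated by kinases below the sensors of foreign nucleic acid, IRF9 belongs to the complex ISGF3 that answers type I interferon, and IRF5 and IRF8 are best known from B cells, macrophages and dendritic cells.

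Total counts ran from 18071928 to 21165063 per library. Il33 had 7, 0 and 9 reads in WT replicates 1, 2 and 3 and 3, 8 and 2 reads in KO replicates 4, 5 and 6, too few to check the genotype labels. Foxp3 (719 to 857 CPM, read counts scaled by library size and TMM factors), Cd4 (547 to 625 CPM) and Il2ra (883 to 1169 CPM) were present in all 6 libraries, as was Tnfrsf18, the gene of the sort marker GITR (91.9 to 111 CPM). Transcripts of 17 B cell markers were present as well and differed between libraries. In WT their summed level was 3629.6 CPM for replicate 1, 1291 for replicate 2 and 2894 for replicate 3, and in KO 932, 1134 and 818 CPM for replicates 4 to 6, so WT replicate 2 lay close to the KO libraries. Markers of myeloid and conventional dendritic cells summed to between 51.8 and 77.9 CPM with overlapping groups, 12 of the 16 were under 5 CPM in every library and S100a9 was at 0. In bulk samples, fewer cells of a type and less RNA per cell cannot be told apart. What the p-values measure is the spread between libraries, which may be technical, because the labels do not say that each library came from separate animals.

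The promoters of Irf1, Irf2, Irf7 and Irf8 are shown because the results below turn on Irf1, Irf7 and Irf8, and Irf2 is the other member with both a GAS and an NF-kB match. The sequences are the 250 bases before the first transcribed base in RefSeq, build GRCm38.p6, 5′ to 3′ on the strand of the gene. They lie at chr11:53769764-53770013 (plus strand) for Irf1, chr8:46739495-46739744 (plus strand) for Irf2, chr7:141266425-141266674 (minus strand) for Irf7 and chr8:120736108-120736357 (plus strand) for Irf8. Capitals mark matches to any of 3 motifs searched on both strands, the ISRE core (GAAA, any 2 bases, GAAA), the STAT element GAS as TTCNNNGAA, and the NF-kB motif.
Irf1: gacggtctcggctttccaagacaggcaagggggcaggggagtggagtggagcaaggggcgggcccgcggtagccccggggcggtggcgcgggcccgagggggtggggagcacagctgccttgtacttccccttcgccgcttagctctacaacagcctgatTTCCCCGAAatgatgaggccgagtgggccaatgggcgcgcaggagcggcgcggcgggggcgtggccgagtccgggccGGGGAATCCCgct
Irf2: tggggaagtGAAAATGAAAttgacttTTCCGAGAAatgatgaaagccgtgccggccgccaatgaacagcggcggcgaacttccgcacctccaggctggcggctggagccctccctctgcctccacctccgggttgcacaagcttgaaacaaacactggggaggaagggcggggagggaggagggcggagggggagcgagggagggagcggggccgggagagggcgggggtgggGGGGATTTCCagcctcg
Irf7: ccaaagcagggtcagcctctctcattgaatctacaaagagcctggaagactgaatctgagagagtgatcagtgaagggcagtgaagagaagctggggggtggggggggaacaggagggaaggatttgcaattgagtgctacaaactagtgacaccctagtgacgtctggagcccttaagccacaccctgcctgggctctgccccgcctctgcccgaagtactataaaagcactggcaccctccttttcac
Irf8: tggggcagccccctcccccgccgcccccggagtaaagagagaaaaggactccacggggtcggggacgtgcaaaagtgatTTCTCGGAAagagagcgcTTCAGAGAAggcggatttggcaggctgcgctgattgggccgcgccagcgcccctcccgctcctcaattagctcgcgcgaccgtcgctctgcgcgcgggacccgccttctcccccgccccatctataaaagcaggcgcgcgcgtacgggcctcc

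In the Irf1 promoter the GAS match TTCCCCGAA covered bases 90 to 82 before the start and the NF-kB match GGGGAATCCC bases 13 to 4 before it. The Irf2 promoter held an ISRE core match, a GAS match and an NF-kB match, at bases 241 to 232, 224 to 216 and 17 to 8 before the start. The Irf8 promoter held 2 GAS matches, TTCTCGGAA and TTCAGAGAA. No match to the 3 motifs was found in the windows shown for Irf7 or in those of Irf3, Irf4, Irf5 and Irf9, and the second RefSeq start of Irf1 and of Irf8 had none either. RefSeq held 11 starts for the 8 members. Of 32851 mouse promoter windows of the same 250 bases, 2.98% held the ISRE core, 7.02% the GAS element and 3.90% the NF-kB motif. A match describes the letters and was not tested as a binding site.

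Irf1 was the IRF with the most transcript per gene length in every library, and Irf5 and Irf8 had the least. In the authors' FPKM values (fragments scaled by transcript length and library size), Irf1 had 73.4, 85.9 and 76.8 in WT replicates 1, 2 and 3 and 119, 112 and 109.8 in KO replicates 4, 5 and 6. Its group means were above those of 94.7% of 11965 tested genes in WT and 96.8% in KO. Irf2 followed at 57.7 ± 1.96 FPKM in WT and 56.5 ± 0.548 in KO, and Irf3 at 51.8 ± 1.44 and 49.6 ± 2.70 (SD, n = 3 each). In WT the next places were held by Irf9 (44.6 ± 4.79 FPKM), Irf7 (41.9 ± 7.44) and Irf4 (39.3 ± 3.43), and the ranges of neighbours among these 3 overlapped. In KO the order was Irf4 (42.7 ± 5.39 FPKM), Irf9 (40.3 ± 1.06) and Irf7 (29.1 ± 3.20), with Irf4 overlapping both Irf3 and Irf9 and Irf7 below Irf9 in all 3 libraries. Irf5 (16.5 ± 4.36 FPKM in WT, 10.7 ± 0.685 in KO) and Irf8 (14.3 ± 3.91 and 9.09 ± 0.791) came last, and their ranges overlapped in WT and not in KO.

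**Figure D1:**
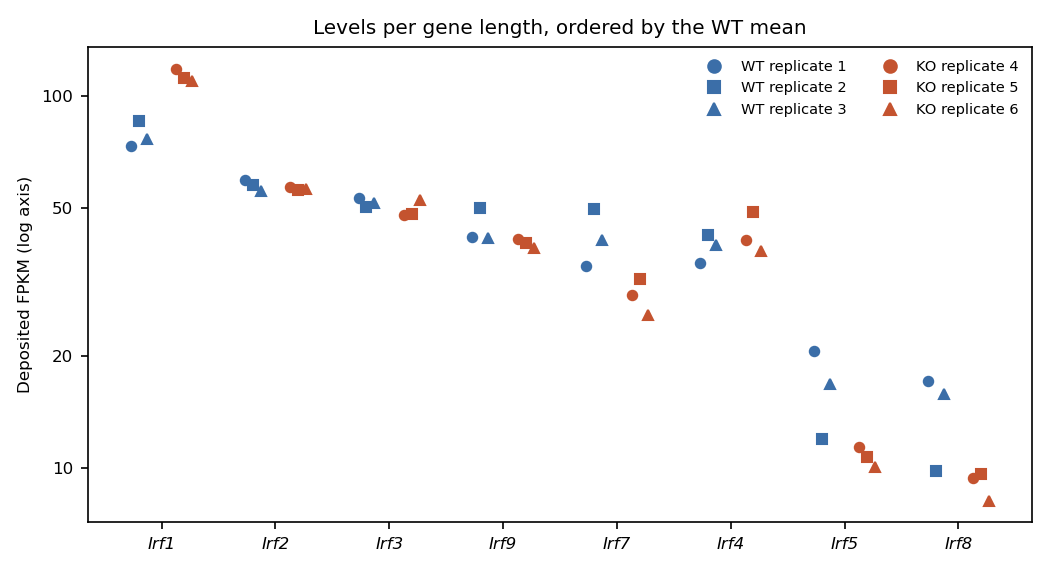
Deposited FPKM of the 8 members on a log axis, ordered by the WT mean; each point is 1 library, blue for WT replicates 1 to 3 and red for KO replicates 4 to 6. Irf1 lies highest in all 6 libraries, Irf5 and Irf8 lie lowest, and in WT replicate 2 both are near their KO values.

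Between KO and WT, 1 of the 8 members, Irf1, passed the test and rose, and 7 did not pass. Across all genes 6.50% passed, 3.68% upward and 2.83% downward, by edgeR's quasi-likelihood test at a Benjamini-Hochberg adjusted p threshold of 0.05, so 1 of 8 is near the background. By CPM, the groups did not overlap for 5 members, Irf1 with KO higher and Irf5, Irf7, Irf8 and Irf9 with KO lower, and overlapped for Irf2, Irf3 and Irf4. Over all tested genes 26.3% had groups that did not overlap, 13.7% with KO higher and 12.6% with KO lower. The median log2 fold change was -0.10 over the members and 0.00 over all tested genes.

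**Figure D2:**
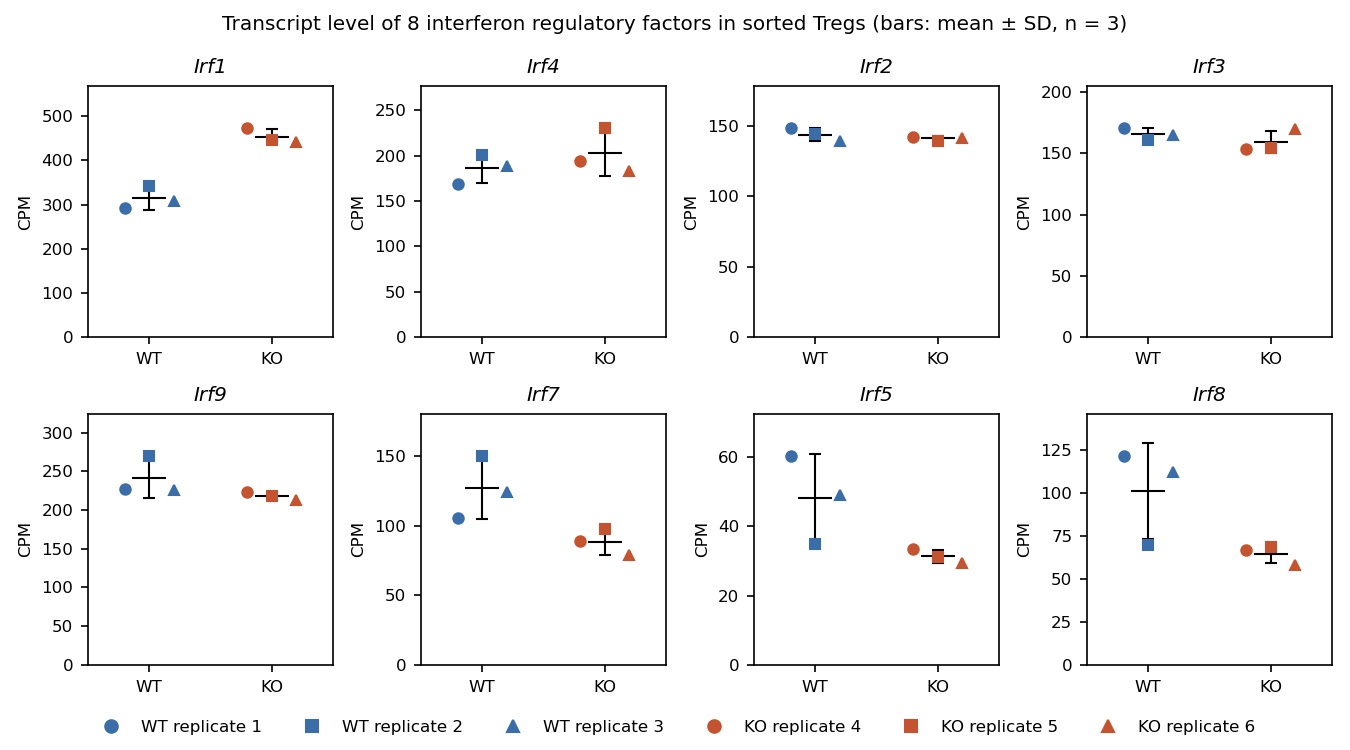
CPM of each member by group, from 0; points are single libraries, horizontal bars the group means and vertical bars the SD (n = 3). The Irf1 points of KO lie at 441 to 474 CPM above WT at 293 to 342, while Irf5 and Irf8 are spread in WT because replicate 2 sits beside the KO libraries.

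Irf1, the activator of interferon-gamma response genes that is also known as a restraint on Foxp3, was higher in every KO library than in any WT library. Irf1 (ENSMUSG00000018899, chromosome 11, 53770014 to 53778374, plus strand, GRCm38) had 293, 342 and 307 CPM in WT replicates 1, 2 and 3 and 474, 447 and 441 CPM in KO replicates 4, 5 and 6. The WT libraries spread over a wider range than the KO libraries, with replicate 2 the highest of WT. The means were 314 ± 25.2 and 454 ± 17.2 CPM (SD, n = 3 each), a 1.45-fold rise or a log2 fold change of 0.53 (SE 0.06, 95% interval 0.40 to 0.67), with an adjusted p of 0.000354 in edgeR's test. The call held with each library left out in turn, with a highest adjusted p of 0.00751 without WT replicate 3. The mean log2 CPM of the 17 markers (the B cell score) was 5.59 to 7.28 in WT and 4.61 to 5.39 in KO, without overlap. A fit with both can therefore hardly separate genotype from score. As a covariate for B cell content, the score took the log2 fold change to 0.37 (SE 0.10). The edgeR adjusted p became 0.153, which ended the call. In that fit 0.558% of all genes passed. Without WT replicates 1 and 3, which hold the most B cell transcript, it was 0.41 (SE 0.10) at an adjusted p of 0.0331, and 1.94% of all genes passed. The B cell markers moved opposite to Irf1, the summed level of 11 Treg markers was higher in KO (4496 to 5212 CPM in WT, 5498 to 5862 CPM in KO), and 14 T lineage markers summed to 6150.3 to 6578 CPM in WT and 6408 to 6932 CPM in KO with overlapping ranges. Their part in the result was not tested. Gm17334, a gene annotated on the opposite strand inside Irf1, had 118 to 176 reads in WT and 230.0 to 283 in KO against 5548 to 9936 reads for Irf1. Its log2 fold change was 0.60 (SE 0.15, adjusted p = 0.0292 by edgeR), and without knowledge of strand use its reads and those of Irf1 cannot be told apart.

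Irf4, the receptor-induced factor of effector Tregs, did not pass. Irf4 (ENSMUSG00000021356, chromosome 13, 30749226 to 30766976, plus strand) had 169, 200.2 and 189 CPM in WT replicates 1, 2 and 3 and 194, 230.5 and 183 CPM in KO replicates 4, 5 and 6. KO replicate 5 was the highest library, and KO replicate 6 lay below 2 of the 3 WT libraries. On the log2 scale the difference was 0.12 (SE 0.09, 95% interval -0.08 to 0.33, edgeR adjusted p = 0.496). It was 0.02 without KO replicate 5 and 0.06 without WT replicate 1, while leaving out WT replicate 2 or KO replicate 6 gave 0.18 and 0.19.

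Irf2, which competes with IRF1 on DNA, had nearly the same level in all libraries. Irf2 (ENSMUSG00000031627, chromosome 8, 46739732 to 46847458, plus strand) had 149, 144 and 139 CPM in WT and 142, 139.6 and 142 CPM in KO. Its log2 fold change of -0.03 (SE 0.05) had a 95% interval from -0.14 to 0.09, which leaves out a rise of the size of Irf1. Irf3, the latent factor activated by TBK1, likewise overlapped between the groups. Irf3 (ENSMUSG00000003184, chromosome 7, 44997648 to 45002848, plus strand) had 171, 161 and 165 CPM in WT and 153, 154 and 169.9 CPM in KO, a log2 fold change of -0.06 (SE 0.06, 95% interval -0.18 to 0.07). The edgeR adjusted p was 0.832 for Irf2 and 0.635 for Irf3. Bcl2l12, which overlaps Irf3 by 1065 bases on the opposite strand, had 187 to 314 reads per library against 2983 to 3596 for Irf3, and did not pass (log2 fold change -0.44, edgeR adjusted p = 0.0679).

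Irf7, the inducible factor that amplifies type I interferon responses, had lower values in all 3 KO libraries and did not pass. Irf7 (ENSMUSG00000025498, chromosome 7, 141262706 to 141266481, minus strand) had 106, 150.4 and 125 CPM in WT replicates 1, 2 and 3 and 88.7, 97.6 and 78.8 CPM in KO replicates 4, 5 and 6. WT replicate 2 was the highest and WT replicate 1 lay close to KO replicate 5. The means were 127 ± 22.4 and 88.4 ± 9.41 CPM (SD, n = 3 each), or -0.52 on the log2 scale (SE 0.14, 95% interval -0.86 to -0.18, unadjusted p = 0.00868, adjusted p = 0.0897 by edgeR). It passed in DESeq2 (adjusted p = 9.82e-05) and, in edgeR, without a filter on low counts (6.68e-10), without WT replicate 1 (0.00741) and without WT replicate 2 (0.0233). Without WT replicates 1 and 3 the log2 fold change was -0.77 (SE 0.11). That fit leaves a lone WT library, replicate 2, the highest library for Irf7. Of all genes 8.03% passed in DESeq2, 6.83% without the filter, 3.30% with WT replicate 1 left out and 9.73% with WT replicate 2 left out. The log2 fold change was -0.78 (SE 0.19, edgeR adjusted p = 0.196) beside the B cell covariate, larger in size than without it. Summed markers of plasmacytoid dendritic cells, the main producers of type I interferon and rich in IRF7, overlapped between the groups (168 to 207 CPM in WT, 172 to 189.8 CPM in KO), with Pacsin1 the highest of them (105 to 137 CPM). Of 7 such markers tested, 0 rose, 1 fell and 6 did not pass, with a median log2 fold change of -0.45. The one that fell was the defining marker Siglech, at 2.08 CPM in WT and 0.857 CPM in KO on average (log2 fold change -1.27, edgeR adjusted p = 0.0313), while Ccr9 was lower in KO and Runx2 higher with the groups apart (-0.45 and 0.31), and neither passed. Their part in the Irf7 values was not tested.

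Irf9, the DNA-binding part of ISGF3, had a small difference that did not pass. Irf9 (ENSMUSG00000002325, chromosome 14, 55603571 to 55610030, plus strand) had 227, 270.3 and 226 CPM in WT and 223, 218 and 213 CPM in KO. WT replicate 2 stood above the other 5 libraries, which lay within 213 to 227 CPM. The log2 fold change was -0.14 (SE 0.07, 95% interval -0.29 to 0.01, edgeR adjusted p = 0.250). It was -0.05 without WT replicate 2 and -0.19 without WT replicate 1 or WT replicate 3. Beside the B cell covariate it was -0.35 (SE 0.10, edgeR adjusted p = 0.173). Without WT replicates 1 and 3, which leaves a lone WT library, it was -0.31 (SE 0.09). Irf9 overlaps Rnf31 on the same strand by 123 bases and Irf7 overlaps Phrf1 on the opposite strand by 45 bases. These neighbours had log2 fold changes of -0.09 (Rnf31) and -0.08 (Phrf1), and neither passed.

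Irf5 and Irf8, the members of B and myeloid cells, had lower values in KO and followed the B cell markers from library to library. Irf8 (ENSMUSG00000041515, chromosome 8, 120736358 to 120756694, plus strand) had 122, 69.6 and 112 CPM in WT replicates 1, 2 and 3 and 66.7, 68.4 and 58.4 CPM in KO replicates 4, 5 and 6. The order of the 6 libraries by Irf8 was the order by summed B cell markers, from WT replicate 1 through WT replicates 3 and 2 to KO replicates 5, 4 and 6. Irf5 (ENSMUSG00000029771, chromosome 6, 29526625 to 29541871, plus strand) had 60.4, 34.9 and 49.1 CPM in WT and 33.4, 31.3 and 29.6 CPM in KO, an order that differed from that of the markers only in KO replicates 4 and 5. The WT coefficients of variation were 26.5% for Irf5 and 27.5% for Irf8, against 8.04% for Irf1 and 3.34% for Irf2.

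Neither passed with all 6 libraries. The log2 fold change was -0.62 for Irf5 (SE 0.20, edgeR adjusted p = 0.156) and -0.65 for Irf8 (SE 0.24, edgeR adjusted p = 0.224). Without WT replicate 2 both passed, at -0.80 (adjusted p = 5.29e-05) and -0.86 (3.17e-06), and Irf5 also passed in DESeq2 (0.000791) and without a filter on low counts (0.00463). Without WT replicates 1 and 3 the values were -0.15 (SE 0.12) for Irf5 and -0.11 (SE 0.10) for Irf8, while adding the B cell covariate gave 0.04 (SE 0.15) and 0.12 (SE 0.11). Of 11 tested myeloid and dendritic cell markers, 1 rose, 1 fell and 9 did not pass, with a median log2 fold change of -0.18 and an overlapping sum in which Lyz2 was the highest (17.6 to 35.2 CPM). Ccl22, a dendritic cell chemokine gene, fell (5.92 ± 1.62 to 2.54 ± 0.620 CPM; SD, n = 3 each), Cd68, a lysosomal marker of macrophages, rose (10.1 ± 2.21 to 18.9 ± 3.17 CPM), and Flt3 and Itgam were lower in KO with the groups apart and did not pass (-1.76 and -0.56 on the log2 scale). Summed markers of NK and CD8 T cells were low and did not overlap (61.2 to 68.5 CPM in WT, 46.3 to 59.1 CPM in KO). The part of these cells was not tested, and whether RNA of B cells made these differences was not tested beyond these values.

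**Figure D3:**
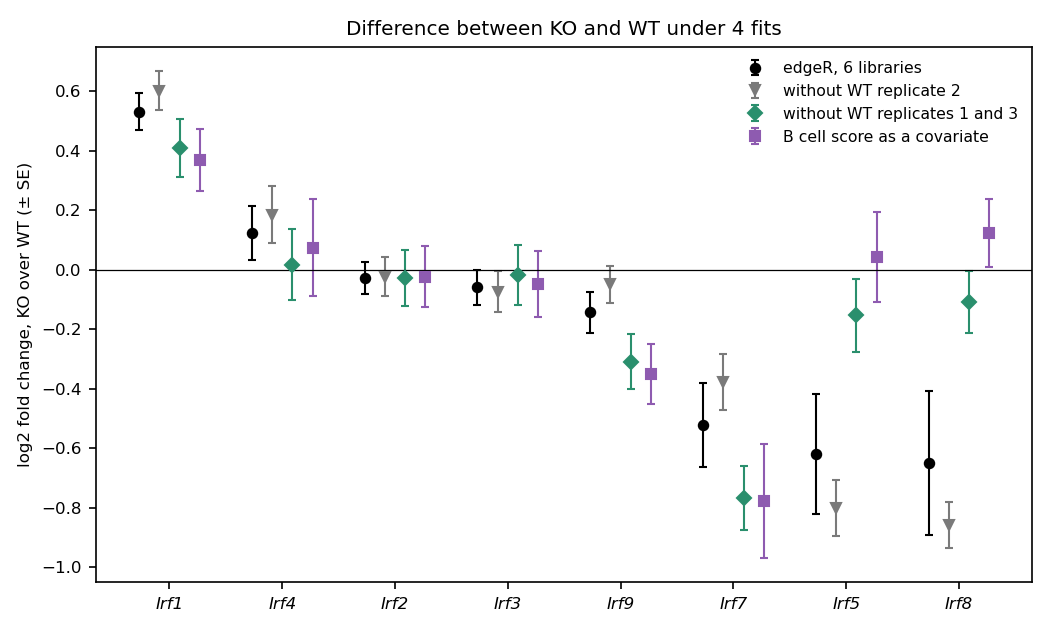
Log2 fold change of KO over WT with its SE for each member in edgeR fits on all 6 libraries (black circles), without WT replicate 2 (grey triangles), without WT replicates 1 and 3 (green diamonds) and with a covariate for the B cell score (purple squares). Irf1 stays above 0 and Irf7 below 0 in all 4. Irf2, Irf3, Irf4 and Irf9, with smaller values in the fit on all 6 libraries, also keep their sign. Each of these is smaller in size than its SE in some fit, so the kept sign says little. Without WT replicates 1 and 3, Irf4 is at 0.02 (SE 0.12) and Irf3 at -0.02 (SE 0.10). Irf5 and Irf8 move from -0.80 and -0.86 without WT replicate 2 to near 0 when WT replicates 1 and 3 are left out or the score is added.

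**Figure D4:**
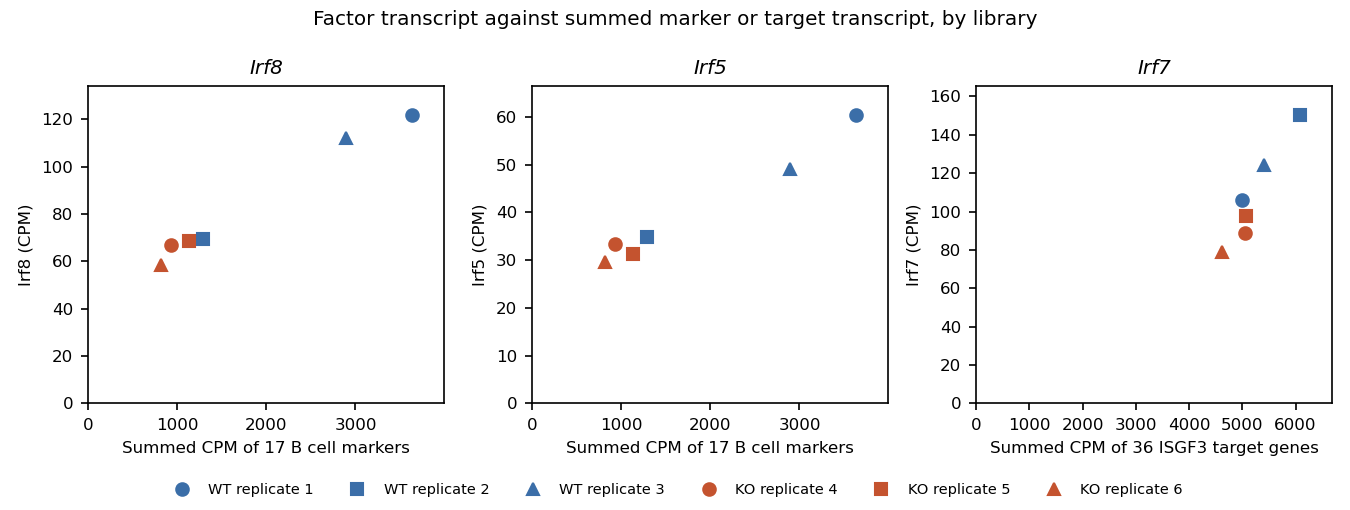
CPM of Irf8 and Irf5 against the summed CPM of 17 B cell markers, and of Irf7 against the summed CPM of 36 ISGF3 target genes, both axes from 0; each point is 1 library. WT replicate 2, with 1291 CPM of B cell markers, lies beside the KO libraries for Irf8 and Irf5 and is the highest library for Irf7.

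The factors were also set against each other within each library, as log2 ratios of read counts, which do not depend on how libraries are scaled. Irf1 over Irf7 was 1.47, 1.18 and 1.30 in WT replicates 1, 2 and 3 and 2.42, 2.20 and 2.49 in KO replicates 4, 5 and 6. The difference of 1.05 is a 2.07-fold change in the balance of the 2 transcripts, and every KO library lay above every WT library. Irf1 over Irf9 had the least spread, at 0.38 ± 0.05 in WT and 1.06 ± 0.02 in KO (SD, n = 3 each), a difference of 0.67. Irf4 over Irf7 was 0.67, 0.41 and 0.60 in WT and 1.13, 1.24 and 1.21 in KO, a difference of 0.63 although Irf4 alone overlapped between the groups. Irf4 over Irf9 differed by 0.26, from -0.43, -0.43 and -0.26 in WT to -0.20, 0.08 and -0.22 in KO, with WT replicate 3 just below KO replicate 6.

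Against the B and myeloid members, Irf1 differed by 1.12 over Irf5 and 1.15 over Irf8, and Irf4 by 0.70 and 0.73. In all 4 WT replicate 2 was the WT library nearest to KO. Irf4 over Irf8 was 0.47, 1.52 and 0.75 in WT and 1.54, 1.75 and 1.65 in KO, so the groups were separated only narrowly. All 8 ratios were higher in KO with no overlap, and each had a two-sided exact permutation p of 0.10 and an adjusted p of 0.10 over the 8, the smallest that 3 libraries against 3 can give. The 4 ratios of Irf1 had to separate. Irf1 was higher in KO and Irf7, Irf9, Irf5 and Irf8 were lower, each without overlap in CPM. How often other gene pairs separate was not examined. The ratios share numerators and denominators, so they are not 8 separate results.

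**Figure D5:**
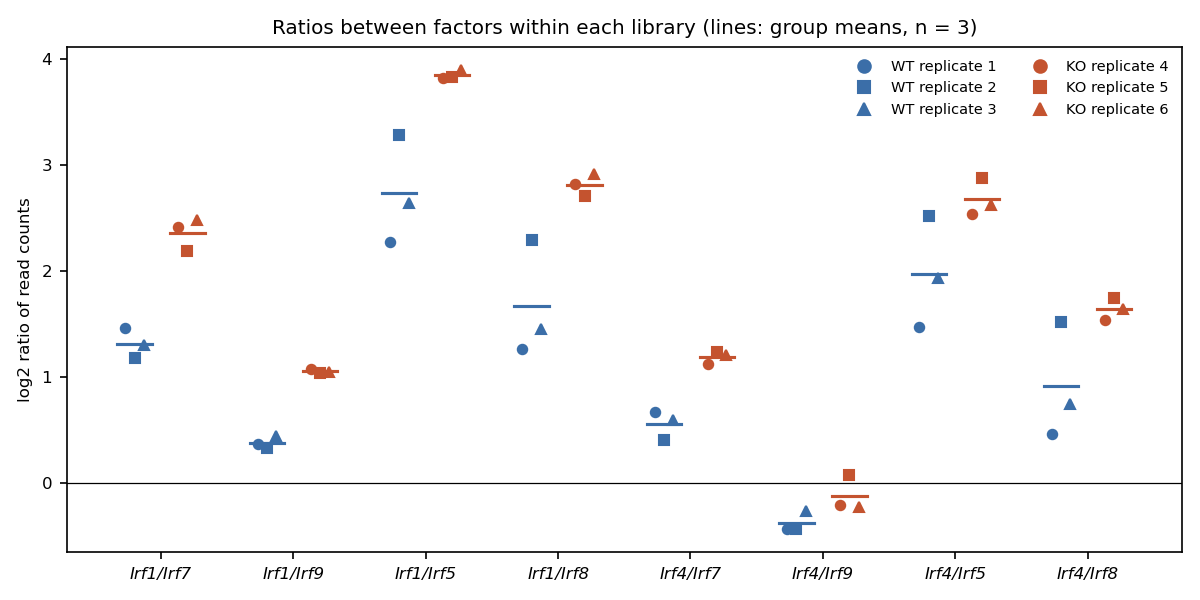
Log2 ratios of read counts of Irf1 or Irf4 over Irf7, Irf9, Irf5 or Irf8 within each library; points are libraries and short lines the group means (n = 3). KO lies above WT in all 8 ratios, with a wide gap for Irf1 over Irf7 and Irf1 over Irf9 and a narrow one for Irf4 over Irf8.

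The pathway around the members was described with 7 lists. These lists can share genes, and no set test was run. Over all genes tested, 3.68% rose and 2.83% fell, the shares to set beside each list below. The lists were chosen with earlier results of these data known, so a list share above that of all genes is a description only. Beside the B cell covariate 0.558% of all genes passed in either direction. The score did not overlap between the groups, so genotype and B cell content cannot be told apart where a call is lost beside it. Of 19 genes of receptor and NF-kB signalling that feed Irf1 and Irf4, 7 rose (36.8%), 0 fell and 12 did not pass. Their median log2 fold change was 0.12. Mean CPM of Cd69, whose protein appears early on activated lymphocytes, rose from 147 ± 19.0 to 308 ± 16.6 (SD, n = 3 each). Nfkbid and Nfkbiz, which encode nuclear co-factors of NF-kB, rose by 0.68 (SE 0.07) and 0.68 (SE 0.11) and Nfkbia, which encodes its inhibitor, by 0.89 (SE 0.11) on the log2 scale. Summed CPM of this list was 3451, 4154 and 4067 in WT and 6786, 6320.03 and 5905 in KO. That ranked the 6 libraries as Irf1 did, from KO replicate 4 to WT replicate 1. The summed DNA-binding partners and co-regulators of IRF proteins had the same order, and the summed IRF1 target genes did not. In the receptor and NF-kB list, leaving out KO replicate 5 gave 3 risen genes and leaving out WT replicate 3 gave 4. There were 2 beside the B cell covariate.

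Of 28 effector Treg genes, the group that IRF4 serves, 9 rose (32.1%, over all genes 3.68%), 0 fell and 19 did not pass. Irf4 itself did not pass. Among the 19, picked after their values were seen, Prdm1 had a log2 fold change of 0.05 with overlapping groups. Icos, Maf, Klrg1 and Gzmb had -0.22, -0.12, -0.28 and -0.55, also with overlap. The median log2 fold change was 0.20. Nfil3, a leucine zipper repressor, rose by 1.31 (SE 0.13), Ccr8, a chemokine receptor gene of effector Tregs, by 0.54 (SE 0.09), the inhibitory receptor gene Ctla4 by 0.53 (SE 0.08) and the costimulatory receptor gene Tnfrsf9 by 0.43 (SE 0.07) on the log2 scale. The number risen was 6 when WT replicate 1 or 3 or KO replicate 6 was left out. It was 1 beside the B cell covariate, where 0.558% of all genes passed. Of 16 tested DNA-binding partners and co-regulators of IRF proteins, 2 rose (12.5%) and 1 fell (6.25%). Those that rose were Jun (567 ± 74.9 to 897 ± 24.5 CPM) and Junb (1376 ± 206 to 2370 ± 224 CPM; SD, n = 3 each), the AP-1 genes whose products bind DNA beside IRF4 and BATF, and the one that fell was the corepressor gene Irf2bp1 (log2 fold change -0.26, SE 0.07). Irf2bp1 lost its call with any 1 library left out, and Junb without KO replicate 4 or KO replicate 6 (highest edgeR adjusted p 0.135 and 0.0786). Beside the B cell covariate neither Jun nor Junb passed (edgeR adjusted p = 0.153 and 0.273).

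Of 25 measured IRF1 and interferon-gamma target genes, 5 rose (20%, over all genes 3.68%), 0 fell and 20 did not pass. The median log2 fold change was 0.09, and the summed CPM overlapped between the groups (6767 to 7515 in WT, 7268 to 7502 in KO). WT replicate 2 was the highest library of that sum. Ciita, picked after its values were seen, had 167, 50.3 and 119 CPM in WT and 28.4, 34.3 and 17.1 CPM in KO. Its log2 fold change of -2.08 did not pass, and it ranked the libraries as the summed B cell markers did. Irgm1, Irgm2 and Psmb8 were also lower in KO without overlap (-0.23, -0.23 and -0.09) and did not pass. Tap2, Tapbp, B2m, Il12rb1 and Il18bp were higher without overlap and did not pass either. Il15ra, a chain of the IL-15 receptor, rose by 0.55 on the log2 scale (SE 0.10). Serpina3g, a protease inhibitor gene, Casp1, which encodes an inflammatory caspase, and the GTPase gene Gbp2 followed with 0.41 (SE 0.08), 0.40 (SE 0.08) and 0.32 (SE 0.07), and all 4 passed. The number risen was 1 without WT replicate 3, 2 without KO replicate 5, 3 without WT replicate 1 and 8 without WT replicate 2. It was 0 beside the B cell covariate, where 0.558% of all genes passed.

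Of 36 ISGF3 target genes, 0 rose, 7 fell (19.4%, over all genes 2.83%) and 29 did not pass, with a median log2 fold change of -0.22. Samd9l, an antiviral gene, fell from 565 ± 18.1 to 416 ± 36.9 CPM and Ifit1, which binds foreign RNA, from 50.8 ± 9.81 to 29.6 ± 2.52 CPM (SD, n = 3 each). Oasl1, a member of the oligoadenylate synthetase family, and Cmpk2, a nucleotide kinase gene, had log2 fold changes of -0.95 (SE 0.15) and -0.62 (SE 0.13). The list summed to 4998, 6076 and 5404 CPM across WT replicates 1 to 3 and 5049, 5075 and 4621 CPM across KO replicates 4 to 6. WT replicate 2 was highest and WT replicate 3 second, as for Irf7, while WT replicate 1 lay among the KO libraries. The number fallen was 2 without WT replicate 3 or KO replicate 6, 3 without KO replicate 4, 4 without WT replicate 2 and 12 without WT replicate 1. Beside the B cell covariate, where 0.558% of all genes passed, 0 fell, with a median of -0.44.

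Upstream of IRF3, IRF5 and IRF7, 0 of 23 sensor and kinase genes rose and 3 fell (13%, over all genes 2.83%). Tlr7, the endosomal RNA sensor, fell from 67.2 ± 5.19 to 49.7 ± 3.53 CPM (SD, n = 3 each), Trim25, a ubiquitin ligase gene, had a log2 fold change of -0.33, with an SE of 0.06, and Ddx58, which encodes RIG-I, one of -0.21 (SE 0.06). Ddx58 is also on the ISGF3 list, and it lost its call when WT replicate 1, 2 or 3 or KO replicate 5 or 6 was left out. The number fallen was 2 to 6 and the number risen 0 to 1 with single libraries left out, the highest both without WT replicate 2. Beside the B cell covariate 0 fell, with edgeR adjusted p of 0.0589 for Tlr7, 0.128 for Trim25 and 0.379 for Ddx58. Unc93b1, chosen after its values were seen, encodes the chaperone of endosomal receptors and was high in WT replicates 1 and 3 as the B cell markers were, at 143.6, 55.1 and 124 CPM in WT and 50.9, 55.1 and 44.0 CPM in KO, and so were Tlr9 and Slc15a4 (log2 fold changes of -1.70 and -0.53). Unc93b1, Tlr9 and Slc15a4 did not pass. Of 15 tested interferon receptor and JAK-STAT genes, 0 rose and 2 fell (13.3%). These were Ptpn6, which encodes the phosphatase SHP-1 (log2 fold change -0.36, SE 0.08), and Usp18, an interferon-induced brake on the receptor (-0.37, SE 0.10). Ptpn6 had 421, 332 and 396 CPM in WT and 303, 287 and 305 CPM in KO, lowest among WT in replicate 2 as the B cell markers were, and its log2 fold change was -0.15 without WT replicates 1 and 3. For Usp18 the call ended on leaving out WT replicate 2 or 3 or KO replicate 4 or 6, and the highest edgeR adjusted p was 0.166. Ptpn6 lost its own on leaving out any 1 library other than WT replicate 2.

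Genes whose pattern lay closest to 4 of the members were found among 8785 protein-coding genes with a mean of at least 10 CPM. The measure was the root mean square difference of mean-centred log2 CPM over the 6 libraries, with 3 genes named for each member. Since likeness was taken over the same 6 libraries, it fixed the direction and size of each gene's difference between KO and WT, which are given as a description. For Irf1 these were Pros1, Ncmap and Pmepa1, at 0.029, 0.036 and 0.037, with log2 fold changes of 0.54, 0.51 and 0.50. For Irf4 they were Gphn, Atad2 and Atp2b4, at 0.023, 0.041 and 0.045. For Irf7 they were Isg15, which encodes a ubiquitin-like protein, Ifi206, of the HIN-200 family, and Tmc3, at 0.059, 0.073 and 0.088. Their log2 fold changes were -0.52, -0.46 and -0.40. For Irf8 they were Snx30, the cannabinoid receptor gene Cnr2, and Cyb561a3, at 0.025, 0.044 and 0.060, with log2 fold changes of -0.61, -0.61 and -0.74.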

How the data were processed

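RNA was measured in 6 libraries, 3 per group, assigned by their titles. The submitters' processing notes list bcl2fastq, STAR 2.4.2a, DESeq2 and build GRCm38. Not given in the sources used here are how reads were counted, whether by strand, and on which annotation. Tables that the authors deposited hold raw counts by Ensembl ID and, by symbol, normalized counts (a signal) and FPKM. A single factor per library turned raw into normalized counts for all 8 members (tolerance 1e-06). Symbols and positions came from GENCODE M21, which matched 35412 of 37187 IDs, and promoters from RefSeq.

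The main test on counts was that of edgeR 4.0.16 (R 4.3.3, filterByExpr, TMM, robust quasi-likelihood fit, two-sided, Benjamini-Hochberg over all genes tested, threshold 0.05). The standard error was derived from the F statistic, and 95% intervals from it are not adjusted. Ratios used a pseudocount of 0.5 counts and exact permutation tests in scipy 1.17.1. Within groups no pair of libraries agreed within sampling noise (chi-square over degrees of freedom 5.16 to 14.6). The lowest member count was 621 reads for Irf5 in KO replicate 6 (95% exact Poisson interval 573 to 672, counting error only).

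Alternatives were DESeq2 1.42.0, limma 3.58.1 (voom, and on log2 FPKM or log2 normalized counts), RLE and upper-quartile factors, other filters and leaving out each library. The B cell covariate and the fit without WT replicates 1 and 3 were added after seeing the data; in the latter the lone WT library is assumed to vary like KO. The members and lists were chosen with earlier results of these data known. Named were the members, of each list up to 4 called genes with the smallest p, and 3 nearest genes for each of 4 members. Of the list genes 1 found no match by symbol and is not analysed here.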

Additional observations from a re-analysis of the deposited data

How the results depend on the processing

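The count of all genes called was 886 and that of members called 1. With no filter on low counts they were 1645 and 3, in DESeq2 1168 and 3, on log2(FPKM + 1) and log2(FPKM + 0.1) 397 and 411 genes with 1 member. Adding the B cell covariate gave 76 and 0, and the fit without WT replicates 1 and 3 gave 282 and 2; both were chosen after seeing the data. With single libraries left out, from 367 (without WT replicate 3) to 1364 genes (without WT replicate 2) and from 1 to 4 members passed. Irf1 alone was called with other factors, the filter at 1 CPM, voom and limma on FPKM or normalized counts. The ISGF3 genes that fell numbered 15 without the filter, 13 in DESeq2 and 3 on either FPKM scale. No change of scaling moved the median of all genes by over 0.1 on the log2 scale. Scaling factors are made to centre most genes near no difference, so this median is no separate check. Beside the covariate, Irf5 and Irf8 turned to 0.043 and 0.12, and Snx30, Cnr2 and Cyb561a3 to 0.14, 0.10 and 0.13. The log2 fold change of Atad2 turned to -0.00906 on leaving out WT replicate 1, -0.0278 on leaving out KO replicate 5 and -0.0155 on leaving out WT replicates 1 and 3, and the log2 fold change of Atp2b4 to -0.00146, -0.0365 and -0.0478 in the same fits; with single libraries left out Atad2 reached 0.14 and Atp2b4 0.11. The causes were not tested. All 8 ratios kept their direction in all 72 recomputed values. Because the groups did not overlap, leaving libraries out could not reverse a direction, so this is no separate check. When single libraries were left out, the differences were 0.98 to 1.13 for Irf1 over Irf7 and 0.16 to 0.32 for Irf4 over Irf9. Of 25 called genes named from the members and pathway lists, 14 kept the call with each library left out and 3 passed beside the covariate (Nfil3, Nfkbid and Cd69). No paired analysis was possible because the groups share no replicate numbers.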

Other observations

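The following genes of the fixed lists were chosen after their values were seen. Spib and Spi1, which encode ETS family partners of IRF4 and IRF8 in B and myeloid cells, had wide differences that did not pass. Spib had 107, 29.9 and 81.8 CPM in WT replicates 1, 2 and 3 and 18.3, 20.8 and 11.9 CPM in KO replicates 4, 5 and 6, which is -2.10 on the log2 scale (SE 0.59, edgeR adjusted p = 0.149). Spi1 had 16.1, 6.71 and 13.5 CPM in WT and 4.10, 5.43 and 3.81 CPM in KO, which is -1.45 on the log2 scale (SE 0.34, edgeR adjusted p = 0.0583). Both ranked the 6 libraries as Irf8 and the summed B cell markers did. Ifngr1 and Ifnar2, which encode chains of the interferon-gamma and type I interferon receptors, lay just outside the threshold in the other direction. Ifngr1 had 172, 197 and 198 CPM in WT and 207, 239 and 227 CPM in KO (edgeR adjusted p = 0.0525), and Ifnar2 had 61.6, 60.3 and 66.7 CPM in WT and 72.7, 71.3 and 73.6 CPM in KO (edgeR adjusted p = 0.0581). The other 2 chain genes of these 2 receptors, Ifnar1 and Ifngr2, had log2 fold changes of 0.01 and -0.07. Il10rb, on the same list, had 57.3, 57.1 and 57.4 CPM in WT and 66.2, 64.7 and 66.2 CPM in KO (edgeR adjusted p = 0.0534).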
